A study of Mus musculus with 6 samples.

Results

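The 32 genes described here encode enzymes of cholesterol and fatty acid synthesis and their regulators. They were chosen by name and not by a rule on their values, but with earlier results of these data known. All 32 were found among the 55536 named genes of the table. RNA had been sequenced from mouse cells of strain C57BL/6, taken at 8 weeks of age. There were 6 groups, each with 1 library and no replicate: uncultured bone marrow cells (BM), marrow grown for 7 days with M-CSF into macrophages (M-BMDM) without IL6, the same with IL6 for 3 h or for 24 h, marrow grown for 7 days with GM-CSF (GM-BMDM) without IL6, and the same with IL6 for 3 h. IL6 is a cytokine that signals through JAK kinases and STAT3. The labels give no dose of the factors, no genotype other than the strain, and no statement on whether animals were pooled or cultures separate. Library totals ran from 18511790 to 24134365 counts, and the 32 genes had between 115 and 10061 counts in every library, so that all 32 passed the filter on low values.

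Cells build cholesterol from acetyl units through mevalonate, squalene and lanosterol, and fatty acids from the same units through malonyl units. The genes are controlled together by SREBP transcription factors, which Scap escorts from the endoplasmic reticulum to the Golgi for cleavage when sterols are scarce and which Insig proteins hold back when sterols are plentiful. LXR receptors, which sense oxidised sterols, raise cholesterol export genes and the gene of SREBP1. In macrophages these pathways are known for the handling of cholesterol taken up from dead cells and lipoproteins.

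The cultures carried macrophage transcripts. The summed level of 6 macrophage markers was 365 CPM in BM, from 4781 to 6107 CPM in the M-CSF libraries and from 2443 to 2527 CPM in the GM-CSF libraries, where CPM is the count of a gene per 1000000 counts of its library after TMM scaling. Of these markers, C1qa, a complement subunit, was 50.9 CPM in GM-BMDM and 46.7 CPM in BM. Mertk, a receptor for the uptake of dead cells, was 7.68 CPM in M-BMDM and 9.79 CPM after 3 h of IL6, below its 11.4 CPM in BM, and the other 4 markers were above BM in every culture. Neutrophil markers (7 genes) summed to 36046 CPM in BM and at most 19.2 CPM in any culture. Erythroid markers (7 genes) summed to 81619 CPM in BM and at most 10.3 CPM in any culture, and 6 B cell markers to 702 CPM and at most 0.920 CPM. Of 5 adipocyte markers, Adipoq had 11.9 CPM in BM and 0 counts in every culture, while Lep had 0 counts in all 6 libraries and Plin1 and Cidec had 0 counts in BM. Scaling by total counts in place of TMM would shift every log2 ratio by -0.17 for M-BMDM against BM, -0.33 for GM-BMDM against BM, -0.16 for GM-BMDM against M-BMDM (-0.11 at 3 h) and 0.14 for 24 h of IL6 against none. No gene of the 32 counted below as higher or lower changed sign with it.

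Promoter sequences, from 250 bases before to 50 bases after a transcription start, were found for 25 of the 32 genes in RefSeq (build GRCm38.p6). Distances are counted from that start, which for some genes, such as Hmgcs1 and Cyp51, differs from the gene coordinates given below. Sequences are shown for 5 genes on which the comparisons turn. Hmgcs1, Cyp51 and Hsd17b7 were lower after 24 h of IL6, Acat2 was the only one of the 32 counted as higher there, and Mvd had 1 of the 4 highest ratios between the 2 growth factors. Each stretch holds 200 bases, from 250 to 51 bases before the start, on the strand of the gene. Capitals mark matches, on either strand, to TCACNCCAC (a sterol regulatory element, the site bound by SREBP), CCAAT (the NF-Y box), GGGCGG (the Sp1 box) and CACGTG (an E-box).
Hmgcs1 (chr13:119690101-119690300, forward strand): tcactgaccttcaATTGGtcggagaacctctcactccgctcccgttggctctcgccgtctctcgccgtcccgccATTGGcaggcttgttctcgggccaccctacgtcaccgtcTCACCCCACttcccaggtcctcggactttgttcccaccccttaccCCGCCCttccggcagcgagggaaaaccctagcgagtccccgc
Cyp51 (chr5:4104748-4104947, reverse strand): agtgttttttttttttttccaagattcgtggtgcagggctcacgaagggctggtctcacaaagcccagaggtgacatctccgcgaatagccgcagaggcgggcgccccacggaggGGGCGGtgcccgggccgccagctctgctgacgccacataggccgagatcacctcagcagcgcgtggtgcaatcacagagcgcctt
Hsd17b7 (chr1:169969256-169969455, reverse strand): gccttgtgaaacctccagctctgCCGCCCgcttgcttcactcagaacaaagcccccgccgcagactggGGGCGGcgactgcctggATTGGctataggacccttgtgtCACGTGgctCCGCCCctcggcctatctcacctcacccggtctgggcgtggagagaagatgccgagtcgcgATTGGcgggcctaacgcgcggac
Mvd (chr8:122443473-122443672, reverse strand): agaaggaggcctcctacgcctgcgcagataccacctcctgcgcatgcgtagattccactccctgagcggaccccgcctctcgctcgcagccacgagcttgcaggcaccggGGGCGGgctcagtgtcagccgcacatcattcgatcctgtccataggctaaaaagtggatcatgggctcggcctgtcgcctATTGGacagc
Acat2 (chr17:12960776-12960975, reverse strand): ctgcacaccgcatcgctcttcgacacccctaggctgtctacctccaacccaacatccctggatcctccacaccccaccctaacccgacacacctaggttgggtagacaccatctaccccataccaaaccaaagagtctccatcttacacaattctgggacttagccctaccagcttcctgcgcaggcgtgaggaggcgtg

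The sterol regulatory element, spelled this way, was found in 1 of the 25 genes, Hmgcs1, where it begins 137 bases before the start used for its promoter. It was found in 1.34% of the 10701 analysed genes with a promoter in the table, and in 1.44% of all 27025 genes there. The NF-Y box was present in 20 of the 25 genes, against 42.6% of analysed genes and 41.1% of all. The Sp1 box was present in 21 of 25, against 65.8% and 38.2%, and the E-box in 5 of 25 (Dhcr7, Hsd17b7, Insig1, Sc5d and Scap), against 11.5% and 8.09%. In Acat2 none of the 4 motifs lies in the stretch shown, and its Sp1 box starts 33 bases before the start. For genes with more than 1 start a match in any of their promoters was counted, and the 25 genes have 33 promoters. Such matches describe the letters of the window and do not show that a factor binds there.

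The first enzymes of the mevalonate pathway join acetyl units and make mevalonate and isoprene units from them. Hmgcs1, HMG-CoA synthase (chromosome 13, 119690379 to 119708260, GRCm38), had 30.7 CPM in BM, 204 in untreated M-BMDM, 193 and 67.3 there with IL6 for 3 h and 24 h, 309 in untreated GM-BMDM and 287 there with IL6 for 3 h. Its level was lowest in BM and lower after 24 h of IL6 than in the other 4 cultures. Acat2, the cytosolic thiolase of the first step (chromosome 17, 12942890 to 12960747), had 16.4 CPM in BM, 12.6 in untreated M-BMDM, 15.6 and 26.4 there with IL6 for 3 h and 24 h, 38.5 in untreated GM-BMDM and 40.0 there with IL6 for 3 h. Mvk, mevalonate kinase, had 5.84 CPM in BM, 10.8 in untreated M-BMDM, 14.8 and 16.1 there with IL6 for 3 h and 24 h, 32.2 in untreated GM-BMDM and 34.1 there with IL6 for 3 h. Pmvk, the kinase of the next step, had 14.4 CPM in BM, 18.9 in untreated M-BMDM, 23.5 and 14.7 there with IL6 for 3 h and 24 h, 37.1 in untreated GM-BMDM and 35.0 there with IL6 for 3 h. For Acat2, Mvk and Pmvk the GM-CSF libraries were the highest 2 of the 6. Mvd, the decarboxylase that yields isopentenyl diphosphate (chromosome 8, 122433601 to 122443422), had 30.03 CPM in BM, 26.5 in untreated M-BMDM, 35.4 and 23.6 there with IL6 for 3 h and 24 h, 157 in untreated GM-BMDM and 160.3 there with IL6 for 3 h. Idi1, the isomerase of that product, had 27.4 CPM in BM, 114 in untreated M-BMDM, 107 and 66.7 there with IL6 for 3 h and 24 h, 136 in untreated GM-BMDM and 114 there with IL6 for 3 h. Fdps, which joins isoprene units to farnesyl diphosphate, had 35.1 CPM in BM, 98.5 in untreated M-BMDM, 125 and 66.6 there with IL6 for 3 h and 24 h, 203 in untreated GM-BMDM and 215 there with IL6 for 3 h. Mvd was high in the GM-CSF libraries alone, while Idi1 and Fdps were above BM in all cultures.

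From squalene to lanosterol the pathway commits to sterols. Sqle, squalene epoxidase (chromosome 15, 59315077 to 59331192), had 16.3 CPM in BM, 193 in untreated M-BMDM, 207 and 59.7 there with IL6 for 3 h and 24 h, 182 in untreated GM-BMDM and 179.9 there with IL6 for 3 h. Lss, lanosterol synthase, had 7.57 CPM in BM, 37.9 in untreated M-BMDM, 36.6 and 30.2 there with IL6 for 3 h and 24 h, 67.9 in untreated GM-BMDM and 75.9 there with IL6 for 3 h. Fdft1, squalene synthase, had 23.2 CPM in BM, 54.3 in untreated M-BMDM, 67.2 and 32.4 there with IL6 for 3 h and 24 h, 109 in untreated GM-BMDM and 109.6 there with IL6 for 3 h. The values of Fdft1 are uncertain. Its annotated exons share 774 bases with those of Ctsb on the opposite strand, a lysosomal protease with 653 CPM in BM and from 10966 to 14797 CPM in the cultures, and whether counting used strand is not given in the sources used here. In all 3 genes BM was the lowest library, and the 24 h library was the lowest of the cultures.

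The enzymes that turn lanosterol into cholesterol did not share 1 pattern. Cyp51, the lanosterol demethylase (chromosome 5, 4081145 to 4104746), had 16.9 CPM in BM, 144 in untreated M-BMDM, 166 and 66.7 there with IL6 for 3 h and 24 h, 224 in untreated GM-BMDM and 237 there with IL6 for 3 h. Msmo1, a methylsterol oxidase (chromosome 8, 64718139 to 64733792), had 22.4 CPM in BM, 197 in untreated M-BMDM, 191 and 75.5 there with IL6 for 3 h and 24 h, 186 in untreated GM-BMDM and 201 there with IL6 for 3 h. Hsd17b7, a ketosteroid reductase of the demethylation that Msmo1 begins (chromosome 1, 169949535 to 169969241), had 9.42 CPM in BM, 71.0 in untreated M-BMDM, 68.6 and 14.2 there with IL6 for 3 h and 24 h, 72.1 in untreated GM-BMDM and 73.0 there with IL6 for 3 h. These 3 were lowest in BM, next lowest after 24 h of IL6, and higher in the other 4 cultures. Dhcr7, which reduces the last double bond on 1 route to cholesterol (chromosome 7, 143823145 to 143848410), had 15.3 CPM in BM, 15.9 in untreated M-BMDM, 18.7 and 25.7 there with IL6 for 3 h and 24 h, 135 in untreated GM-BMDM and 133 there with IL6 for 3 h. Nsdhl, a sterol dehydrogenase, had 11.8 CPM in BM, 22.7 in untreated M-BMDM, 24.8 and 17.6 there with IL6 for 3 h and 24 h, 51.5 in untreated GM-BMDM and 48.5 there with IL6 for 3 h. Tm7sf2, a sterol reductase, had 4.73 CPM in BM, 7.62 in untreated M-BMDM, 8.80 and 7.39 there with IL6 for 3 h and 24 h, 22.4 in untreated GM-BMDM and 23.1 there with IL6 for 3 h, and shares 532 exon bases with Vps51 on the same strand. Dhcr7, Nsdhl and Tm7sf2 were highest in the GM-CSF libraries, and Dhcr7 was within 2-fold of BM in every M-CSF library. Ebp, a sterol isomerase, had 29.3 CPM in BM, 34.3 in untreated M-BMDM, 38.1 and 43.5 there with IL6 for 3 h and 24 h, 60.4 in untreated GM-BMDM and 59.4 there with IL6 for 3 h. Sc5d, a sterol desaturase, had 20.9 CPM in BM, 65.8 in untreated M-BMDM, 57.0 and 53.0 there with IL6 for 3 h and 24 h, 102 in untreated GM-BMDM and 106 there with IL6 for 3 h. Both spanned less than the 3 enzymes first named here. Stard4, which carries cholesterol between membranes, had 28.5 CPM in BM, 63.2 in untreated M-BMDM, 59.9 and 73.8 there with IL6 for 3 h and 24 h, 106 in untreated GM-BMDM and 108 there with IL6 for 3 h, with the 24 h library above the other M-CSF libraries.

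Among the regulators, Srebf2, which encodes SREBP2, the main factor of sterol genes, had 151 CPM in BM, 304 in untreated M-BMDM, 335 and 212 there with IL6 for 3 h and 24 h, 271 in untreated GM-BMDM and 294 there with IL6 for 3 h. Srebf1, which encodes SREBP1, had 63.9 CPM in BM, 75.6 in untreated M-BMDM, 90.7 and 106 there with IL6 for 3 h and 24 h, 93.3 in untreated GM-BMDM and 99.2 there with IL6 for 3 h. Scap had 57.2 CPM in BM, 49.3 in untreated M-BMDM, 56.8 and 60.0 there with IL6 for 3 h and 24 h, 53.4 in untreated GM-BMDM and 57.9 there with IL6 for 3 h. The values of Scap lay close together in all 6 libraries, and those of Srebf1 were lowest in BM and highest after 24 h. Insig1, the Insig protein that is itself an SREBP target (chromosome 5, 28071363 to 28078662), had 19.0 CPM in BM, 163 in untreated M-BMDM, 184 and 89.97 there with IL6 for 3 h and 24 h, 165 in untreated GM-BMDM and 168 there with IL6 for 3 h. Insig2, its relative, had 12.6 CPM in BM, 24.1 in untreated M-BMDM, 22.9 and 26.8 there with IL6 for 3 h and 24 h, 28.6 in untreated GM-BMDM and 27.3 there with IL6 for 3 h. Insig1 was lowest in BM, and its level after 24 h lay between BM and the other cultures. The 5 cultures differed little in Insig2.

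In the fatty acid branch, Acly, which makes cytosolic acetyl units from citrate, had 187 CPM in BM, 165 in untreated M-BMDM, 167 and 189 there with IL6 for 3 h and 24 h, 316 in untreated GM-BMDM and 316 there with IL6 for 3 h. Acaca, the carboxylase that makes malonyl units, had 37.6 CPM in BM, 38.9 in untreated M-BMDM, 41.4 and 57.1 there with IL6 for 3 h and 24 h, 62.4 in untreated GM-BMDM and 72.3 there with IL6 for 3 h. Fasn, fatty acid synthase, had 68.5 CPM in BM, 118 in untreated M-BMDM, 137 and 147 there with IL6 for 3 h and 24 h, 173 in untreated GM-BMDM and 192 there with IL6 for 3 h. For each of these 3 the GM-CSF libraries held the highest level. Scd1, a desaturase that makes oleate (chromosome 19, 44394455 to 44407879), had 78.1 CPM in BM, 10.9 in untreated M-BMDM, 12.2 and 4.86 there with IL6 for 3 h and 24 h, 187 in untreated GM-BMDM and 219 there with IL6 for 3 h. Scd2, its neighbour on the same chromosome (chromosome 19, 44293674 to 44306864), had 113 CPM in BM, 80.3 in untreated M-BMDM, 87.2 and 90.1 there with IL6 for 3 h and 24 h, 463 in untreated GM-BMDM and 526 there with IL6 for 3 h. How reads shared by these related genes were assigned is not given in the sources used here. Scd1 was low in the 3 M-CSF libraries only, and Scd2 was highest in the GM-CSF libraries. Elovl6, an elongase of saturated chains (chromosome 3, 129532355 to 129638495), had 18.7 CPM in BM, 9.50 in untreated M-BMDM, 8.12 and 11.4 there with IL6 for 3 h and 24 h, 9.70 in untreated GM-BMDM and 12.2 there with IL6 for 3 h. Fads1, a desaturase of polyunsaturated chains, had 32.01 CPM in BM, 88.5 in untreated M-BMDM, 99.6 and 144 there with IL6 for 3 h and 24 h, 97.9 in untreated GM-BMDM and 102 there with IL6 for 3 h. Fads2, a desaturase that acts before it, had 23.9 CPM in BM, 27.7 in untreated M-BMDM, 33.5 and 53.2 there with IL6 for 3 h and 24 h, 72.9 in untreated GM-BMDM and 72.0 there with IL6 for 3 h. Elovl6 was highest in BM, and Fads1 was highest after 24 h of IL6. Beside Fdft1 and Tm7sf2, exon bases are shared with a gene of at least 1 CPM by Cyp51 (166 bases, Akap9, opposite strand), Srebf1 (109 bases, Rai1, opposite strand) and Fdps (Gm43738, same strand).

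**Figure D1:**
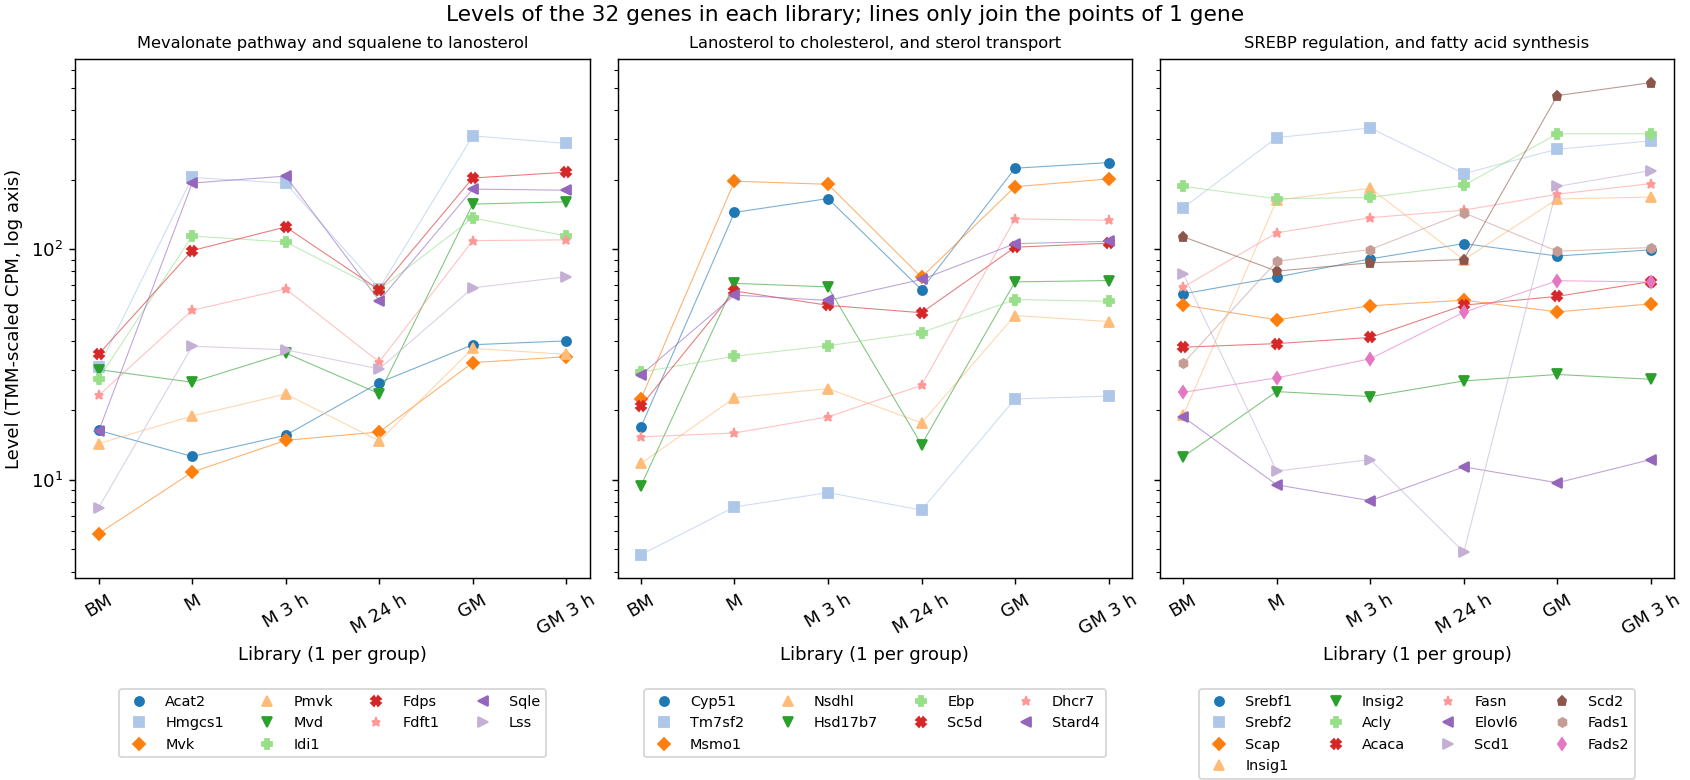
Levels of the 32 genes (TMM-scaled CPM, log axis) in the 6 libraries, 1 point per gene and library, in 3 panels by role; there are no replicates and no error bars, and lines only join the points of 1 gene. Hmgcs1, Sqle, Cyp51, Msmo1 and Hsd17b7 are lowest in BM and next lowest after 24 h of IL6. Scd1 and Dhcr7 separate the GM-CSF from the M-CSF libraries.

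Divided by gene length as the table gives it, the order of levels changed with the culture. Acly was the highest of the 32 in BM (42.2 CPM per kilobase), Msmo1 in M-BMDM (96.3) and Fdps in GM-BMDM (147). After 24 h of IL6, Fdps was first (48.2) and Acly was the next (42.7). The lowest was Lss in BM (1.62), Scd1 in M-BMDM (2.26) and Elovl6 in GM-BMDM (3.72). The summed CPM of all 32 genes was 1229 in BM, 2548 in M-BMDM, 2733 and 1973 after 3 h and 24 h of IL6, 4224 in GM-BMDM and 4399 after 3 h.

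Against marrow, part of the sterol pathway was higher after growth with M-CSF, and nearly all of it after growth with GM-CSF. A gene is called higher or lower here when 2 libraries differed at least 2-fold in scaled counts, the 95% interval of their ratio did not contain 1, and 1 of the 2 reached 5 CPM. Such ratios compare 2 libraries, have no replicate check, and their intervals cover counting error only. In M-BMDM against BM, 14 of the 32 genes were higher and 1 was lower, while 20.1% of all 11245 genes tested were higher and 23.0% lower. The median log2 ratio of the 32 genes was 0.91, and that of all genes tested was 0.02. In GM-BMDM against BM, 26 were higher and none was lower, against 19.8% and 22.3% of 11367 genes, with medians of 2.08 and -0.04. The 2 comparisons share the BM library. In marrow, which mixes many cell types, fewer cells of a type and less RNA per cell cannot be told apart, and the markers of neutrophils and red cell precursors above moved with these differences. So did 5 markers of dividing cells, whose sum of 2339 CPM in BM compares with 287 CPM for M-BMDM and 381 CPM for GM-BMDM. The part of these cells in the ratios was not tested.

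By role, all 3 squalene to lanosterol genes were higher than BM in both cultures, with Fdft1 uncertain as said above. Of the 7 mevalonate genes, 3 were higher in M-BMDM and 7 in GM-BMDM. Of the 8 lanosterol to cholesterol genes, 4 were higher in M-BMDM and 8 in GM-BMDM. Sqle had the highest ratio in M-BMDM, 11.9-fold (log2 ratio 3.57, 95% interval 3.42 to 3.73), and was 11.2-fold higher in GM-BMDM. Cyp51 had the highest ratio in GM-BMDM, 13.2-fold (log2 ratio 3.73, 95% interval 3.58 to 3.87). Msmo1 had log2 ratios of 3.13 (3.00 to 3.27) in M-BMDM and 3.06 (2.93 to 3.19) in GM-BMDM. Mvd and Dhcr7 were neither higher nor lower in M-BMDM, with log2 ratios of -0.18 (-0.35 to -0.02) and 0.06 (-0.17 to 0.28). In GM-BMDM their log2 ratios were 2.38 (2.27 to 2.50) and 3.14 (2.98 to 3.30).

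Of the 5 regulators, Insig1 and Srebf2 were higher than BM in M-BMDM, and Insig1 and Insig2 in GM-BMDM. Insig1 was 8.58-fold higher in M-BMDM and 8.67-fold higher in GM-BMDM. Srebf2 was 2.02-fold higher in M-BMDM (log2 ratio 1.01, 95% interval 0.95 to 1.07), at the edge of the 2-fold limit, and 1.80-fold in GM-BMDM. Scap (log2 ratios -0.21 and -0.10) and Srebf1 (0.24 and 0.55) stayed below 2-fold in both. Of the 8 fatty acid genes, Fads1 was higher and Scd1 lower in M-BMDM, and 5 were higher in GM-BMDM (Fads1, Fads2, Fasn, Scd1 and Scd2). Scd1 was 7.16-fold lower in M-BMDM (log2 ratio -2.84, 95% interval -3.06 to -2.63) and 2.39-fold higher in GM-BMDM (log2 ratio 1.26, 95% interval 1.18 to 1.34). Elovl6 lay just inside the limit on the lower side in both, with log2 ratios of -0.98 (-1.24 to -0.72) and -0.95 (-1.19 to -0.71). With the 3 h library in place of M-BMDM, a choice made after the data were seen, 16 genes were higher and 2 lower than BM, against 20.0% and 23.3% of all genes, the added lower gene being Elovl6 at -1.21. With total-count scaling 12 genes were higher than BM in M-BMDM, without Srebf2 (0.84) and Stard4 (0.98), and 22 in GM-BMDM, without Acat2 (0.90), Ebp (0.72), Insig2 (0.86) and Scd1 (0.93). Elovl6 was then lower in both (-1.15 and -1.28). The share of all genes counted with that scaling was not computed.

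**Figure D2:**
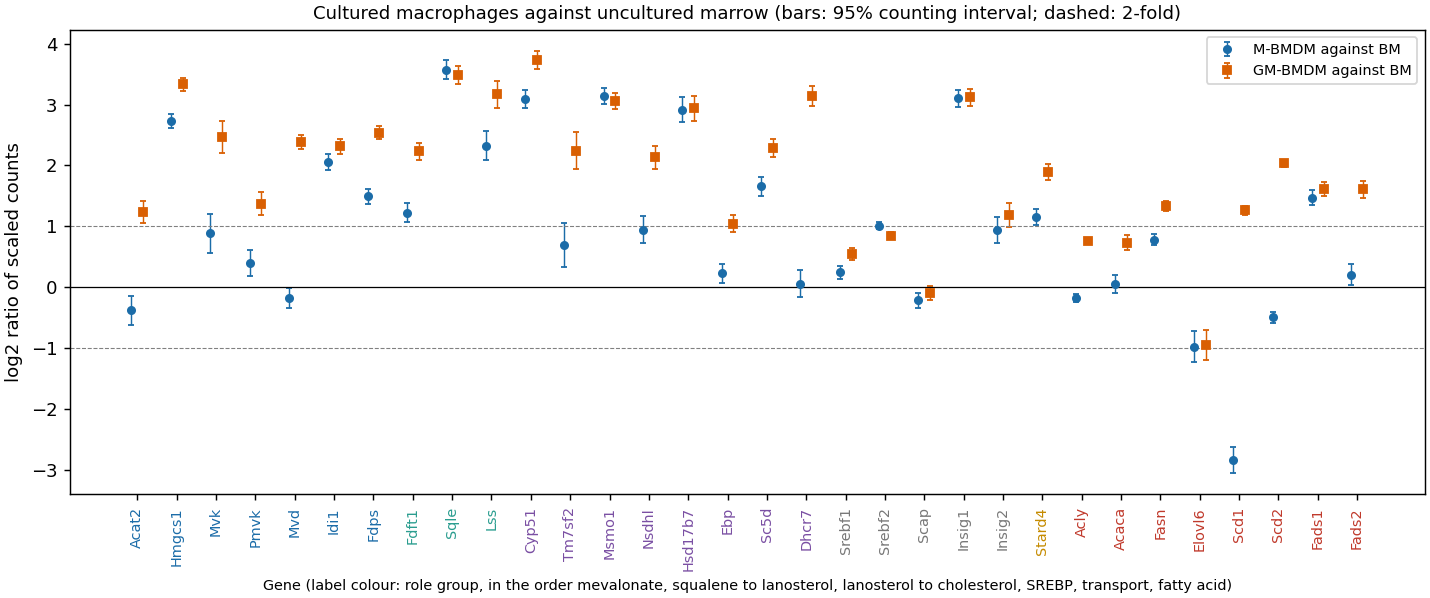
Log2 ratio of scaled counts against BM for each of the 32 genes, M-BMDM as circles and GM-BMDM as squares, with 95% counting intervals as bars and the 2-fold limit dashed. In GM-BMDM 26 genes lie at or above the upper limit, in M-BMDM 14 do, and Scd1 lies below the lower limit in M-BMDM and above the upper one in GM-BMDM.

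Other genes of the pathway were read from a list of 14, of which 11 reached 5 CPM in these pairs. In M-BMDM against BM 2 were higher and 2 lower, and in GM-BMDM 3 were higher and 1 lower. Me1, malic enzyme, which supplies NADPH, had log2 ratios of 7.28 (95% interval 5.92 to 9.16) and 6.61 (5.24 to 8.50). Both rest on only 4 counts of Me1 in BM. Higher in M-BMDM was also Mbtps2, a protease that cleaves SREBP (1.67), and lower were Lpin1, a phosphatidate phosphatase (-2.21), and Acss2, an acetyl-CoA synthetase (-1.33). In GM-BMDM, Lpin1 (1.74) and Tmem97, a sterol-binding membrane protein (1.29), were higher, and Rnf145, a ubiquitin ligase of the sterol pathway (-2.02), was lower. Of 7 LXR regulators and targets, 3 were higher and 1 was lower than BM in each culture. Nr1h3, which encodes LXR alpha, had log2 ratios of 3.67 and 2.98, and Abca1, a cholesterol exporter, had 3.13 and 2.44. Abcg1, another exporter, was lower in M-BMDM (-1.56) and higher in GM-BMDM (2.97). Apoe, a lipid carrier, was higher in M-BMDM (3.91), and Mylip, a ubiquitin ligase, was lower in GM-BMDM (-1.93).

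The 2 growth factors were compared in 2 pairs of libraries that share none, without IL6 and after 3 h of it. Sterol and desaturase genes were mostly higher with GM-CSF. The levels of 26 of the 32 genes were higher in both GM-CSF libraries than in both M-CSF libraries, and those of Srebf2 and Sqle were lower in both. Insig1, Msmo1, Scap and Fads1 overlapped. Over all 14719 genes analysed, 38.1% were higher in both GM-CSF libraries and 35.9% were lower. By the 2-fold rule 11 of the 32 genes were higher and none was lower without IL6, against 10.8% and 8.64% of 10495 genes. After 3 h of IL6, 9 were higher and none lower, against 10.6% and 8.06% of 10449 genes. Median log2 ratios were 0.71 and 0.67 for the 32 genes, and -0.02 and -0.03 for all genes tested. With total-count scaling 9 genes were higher without IL6, without Fdps (0.89) and Fdft1 (0.84). After 3 h there were 7, without Lss (0.94) and Fads2 (1.00, just under the limit). The share of all genes counted with that scaling was not computed.

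A fit over all libraries with terms for cell type and IL6 time tested this difference with edgeR's quasi-likelihood test and Benjamini-Hochberg adjustment over 14719 genes at 0.05. It called 24 of the 32 genes as having risen with GM-CSF and none as having fallen, where 28.9% of all genes rose and 27.4% fell. At an unadjusted p under 0.05, 1 of the 32, Srebf2, was lower, and the DESeq2 Wald test called none as lower. The share of all genes that were lower at such a p was not computed. In either direction it was 59.8%, which cannot be set against a count of lower genes. The fit has 1 residual degree of freedom per gene and 502 prior degrees of freedom, borrowed from all genes. Its p-values thus rest on how far the 2 cell types differed in their 3 h response across genes. They depend little on the spread of the gene itself. They may reflect technical spread alone, since the labels do not say that libraries came from separate cultures. Differences between separate M-CSF and GM-CSF cultures were not measured. With a fixed coefficient of variation of 0.2 in place of the estimated 6.45%, 18 of the 32 were called as having risen. The share of all genes at that setting was not computed.

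Scd1 rose most in edgeR's quasi-likelihood test (log2 change 4.13, standard error 0.105, adjusted p = 9.0e-153). It was 17.2-fold higher without IL6 and 17.9-fold higher after 3 h. Dhcr7 rose by a log2 of 2.95, Scd2 by 2.56 and Mvd by 2.36. Acat2 (1.48), Tm7sf2 (1.47), Mvk (1.38), Fads2 (1.25) and Nsdhl (1.07) also rose by more than 2-fold in the fit, which makes 9 of the 32 genes against 13.3% of all genes, while none fell by as much against 7.98%. A further 15 genes rose by less, from Lss (0.95), Acly (0.93), Fdps (0.92) and Fdft1 (0.85) to Srebf1 (0.22). Between these lay Stard4 (0.80), Pmvk (0.77), Sc5d (0.76), Acaca (0.74), Ebp (0.73), Hmgcs1 (0.59), Cyp51 (0.58), Fasn (0.52), Elovl6 (0.31) and Insig2 (0.25). The calls of Srebf1, Insig2 and Elovl6 were the weakest, with edgeR adjusted p of 0.0270, 0.0390 and 0.0409, and were lost under total-count scaling, without the filter on low values, with the fixed variation and in the DESeq2 Wald test. Those of Hmgcs1, Cyp51 and Fasn were lost with the fixed variation. Several of the genes with the highest ratios against BM did not pass. Msmo1 had a log2 change of -0.00084 (standard error 0.0819), Insig1 of -0.06 (0.0823), Hsd17b7 of 0.06 (0.0920) and Sqle of -0.15 (0.0819), and none of the 4 passed. Srebf2 had -0.18 (adjusted p = 0.0556), Idi1 0.17 (adjusted p = 0.0721), Scap 0.07 (adjusted p = 0.553) and Fads1 0.09 (adjusted p = 0.417) in the same edgeR test. With total-count scaling Srebf2 (-0.31, adjusted p = 0.00113) and Sqle (-0.28, adjusted p = 0.00493) fell in it, and Idi1 rose with DESeq2 size factors (0.20, adjusted p = 0.0350) or with a filter at 5 CPM (0.18, adjusted p = 0.0474).

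**Figure D3:**
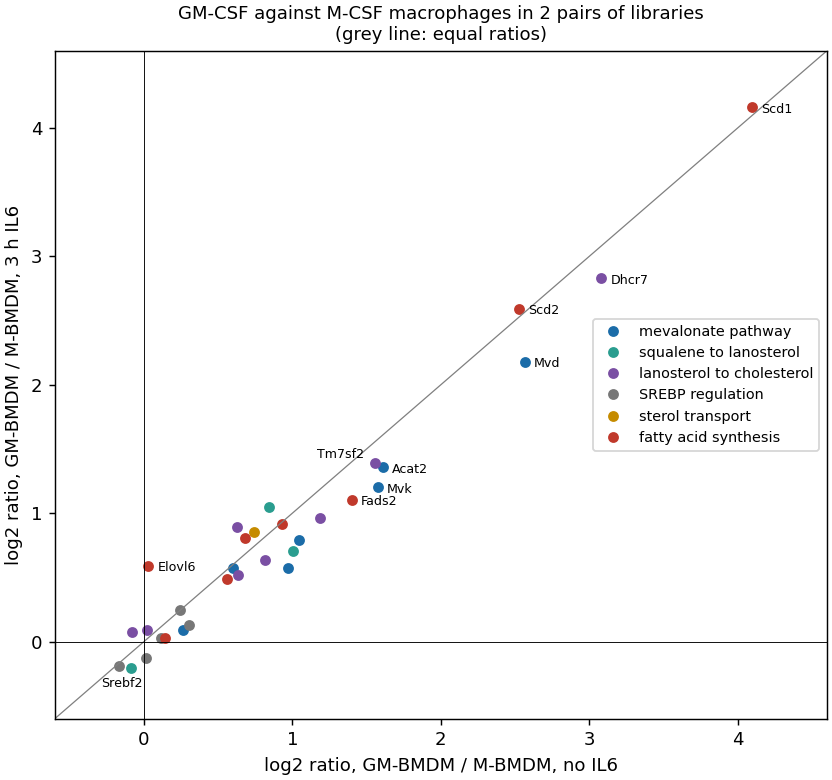
Log2 ratio of GM-BMDM over M-BMDM without IL6 (x axis) and after 3 h of IL6 (y axis), 1 point per gene, coloured by role, with a grey line of equal ratios and no error bars. Scd1, Dhcr7, Scd2 and Mvd lie above 2 on both axes, the regulators lie near 0, and Elovl6 is the point farthest from the line.

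Some marker transcripts of another cell type moved with this difference. The summed level of 6 dendritic cell markers was from 15.2 to 27.9 CPM in the M-CSF libraries and from 1016 to 1020 CPM in the GM-CSF libraries. Nearly all of it was Itgax, an integrin that macrophages express too, with 994 CPM in GM-BMDM and 26.1 CPM in M-BMDM. Ccr7, a homing receptor, had 20.2 and 0.215 CPM, Zbtb46, a dendritic cell factor, 3.36 and 0.322 CPM, and Flt3, a receptor of dendritic cell precursors, 0.322 CPM in both. Cd209a, a lectin, had 1.24 and 0.0537 CPM, and Xcr1, a chemokine receptor, went the other way, at 0.184 CPM in GM-BMDM and 0.805 CPM in M-BMDM. Their part in the differences of the lipid genes was not tested. Of the other pathway genes, Lpin1 (log2 ratio 3.95) and Acss2 (1.29) were higher with GM-CSF, Rnf145 (-1.44) was lower, and the other 8 that reached 5 CPM were neither. Of the 7 LXR genes, Abcg1 was higher with GM-CSF (4.53) and Apoe was lower (-3.23), while Nr1h3 was at -0.69. With 3 h of IL6 in both cultures, 2 of the 11 other pathway genes were higher with GM-CSF and 1 lower, and 1 of the 7 LXR genes was higher and 2 were lower.

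After 3 h of IL6 the 32 genes were close to their levels without it. None was higher or lower by the 2-fold rule in M-BMDM, where 0.0906% of 9937 genes were higher and 0.272% lower. None was in GM-BMDM either, where 0.0585% of 10255 genes were higher and 0.107% lower. The largest difference in M-BMDM was that of Mvk (log2 ratio 0.46, 95% interval 0.20 to 0.72), followed by Mvd (0.42) and Fdps (0.34). In GM-BMDM it was that of Elovl6 (log2 ratio 0.33, 95% interval 0.06 to 0.61), and Idi1 was the lowest (-0.26, -0.34 to -0.18). In the edgeR test over both cell types, none of the 32 passed, with a lowest adjusted p = 0.346, and changes ran from -0.17 to 0.24 on the log2 scale. At an unadjusted p under 0.05 there were 7, of which 6 were above 0 (Mvk, Mvd, Fdps, Srebf1, Fasn and Scd1) and Idi1 was below. Of the other pathway genes and the LXR genes, none was higher or lower at 3 h in either culture. Over all genes 0.177% rose and 0.788% fell (0.109% and 0.163% by at least 2-fold), 8.25% had an unadjusted p under 0.05, and the DESeq2 Wald test called none of the 32.

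After 24 h of IL6, sterol genes such as Hsd17b7, Sqle and Hmgcs1 were at lower levels in M-BMDM. Of the 8 fatty acid genes, 7 were above their level without IL6, all by less than 2-fold, as 7 were after 3 h. By the 2-fold rule 6 of the 32 genes were lower and 1 was higher than in M-BMDM without IL6, against 8.93% lower and 11.5% higher of 10313 genes. The median log2 ratio was -0.10 for the 32 genes and 0.02 for all genes tested. No test was made of this difference, in which each group is 1 library. For comparison, the 3 h and untreated M-BMDM libraries differed by a median of 0.17 and at most 0.46 on the log2 scale over the 32 genes. These libraries also differ in treatment, and the spread between separate cultures was not measured. The 24 h level lay below both of those libraries in 17 of the 32 genes and above both in 15, against 41.1% and 41.4% of all genes.

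The lower genes belonged to 4 roles. Hsd17b7 was 5.003-fold lower (log2 ratio -2.32, 95% interval -2.50 to -2.15), with 342 counts after 24 h and 1323 without IL6. Sqle was 3.24-fold lower (log2 ratio -1.69, 95% interval -1.78 to -1.61) and Hmgcs1 3.04-fold (log2 ratio -1.60, 95% interval -1.69 to -1.52). Msmo1 had a log2 ratio of -1.38 (-1.46 to -1.30), Cyp51 of -1.11 (-1.20 to -1.02) and Scd1 of -1.17 (-1.51 to -0.83), the last from 117 and 203 counts. With total-count scaling Cyp51 was at -0.98 and no longer counted, which leaves 5 lower genes, and Fads2 was at 1.08 and counted as higher. The share of all genes counted with that scaling was not computed. The 2-fold rule by itself places the 6 genes counted with TMM scaling beyond the largest 3 h difference in M-BMDM (0.46), so that comparison adds no support. Below the 2-fold limit, Insig1 (-0.86, -0.94 to -0.78), Idi1 (-0.77, -0.87 to -0.68), Fdft1 (-0.74, -0.88 to -0.61), Fdps (-0.57, -0.66 to -0.47) and Srebf2 (-0.52, -0.57 to -0.46) also had ratios under 1. Nsdhl, Pmvk, Lss, Sc5d, Mvd and Tm7sf2 ran from -0.36 to -0.05. All 3 squalene to lanosterol genes were thus under 1, with a median of -0.74, while the 8 fatty acid genes had a median of 0.29, with 7 of 8 above 0.

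Acat2 was 2.09-fold higher after 24 h (log2 ratio 1.06, 95% interval 0.84 to 1.29). Fads2 (0.94, 0.80 to 1.09), Fads1 (0.70, 0.61 to 0.78), Dhcr7 (0.69, 0.48 to 0.89), Mvk (0.58, 0.33 to 0.83), Acaca (0.55, 0.42 to 0.69) and Srebf1 (0.48, 0.39 to 0.58) followed, all below 2-fold. Fasn (0.33), Ebp (0.34), Scap (0.28), Elovl6 (0.26), Stard4 (0.22), Acly (0.19), Scd2 (0.17) and Insig2 (0.15) were above 0 by less. With the 3 h library as the reference, a choice made after the data were seen, 8 genes were lower and none higher. The same 6 were lower there, from -2.27 for Hsd17b7 to -1.31 for Cyp51, together with Insig1 (-1.03) and the uncertain Fdft1 (-1.05). Acat2 was 1.69-fold higher. The share of all genes counted was 8.59% lower and 11.7% higher with that reference.

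**Figure D4:**
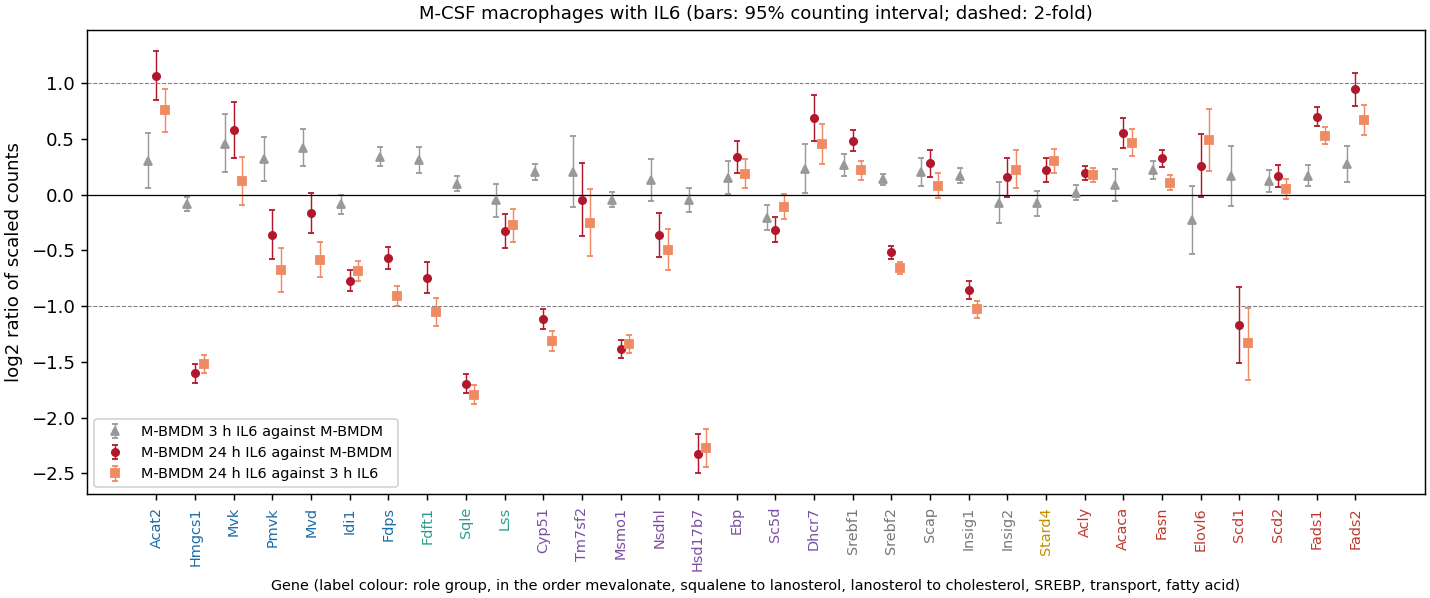
Log2 ratios of scaled counts in M-CSF macrophages for each of the 32 genes: 3 h of IL6 against none as triangles, 24 h against none as circles, and 24 h against 3 h as squares, with 95% counting intervals as bars and the 2-fold limit dashed. Triangles stay within 0.46 of 0. Hsd17b7, Sqle, Hmgcs1, Msmo1, Scd1 and Cyp51 lie below the lower limit in both 24 h comparisons, and that limit by itself places them beyond 0.46.

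Transcripts of dividing cells moved with the 24 h library. The summed level of 5 cycling markers was 287 CPM in M-BMDM, 277 CPM after 3 h and 2017 CPM after 24 h, close to the 2339 CPM of BM, and all 5 were higher after 24 h. The macrophage markers summed to 5677, 6107 and 4781 CPM in these libraries. The part of dividing cells in the lipid gene differences was not tested. Of the 11 other pathway genes that reached 5 CPM, Lpin1 was higher after 24 h (1.95), and 10 were neither. Of the 7 LXR genes, Abcg1 was higher (3.15) and Nr1h3 lower (-1.18), while Abca1 was at -0.72 and Apoe at -0.53.

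The 24 h ratios were set beside those of another pair of libraries that shares none with them, GM-BMDM after 3 h of IL6 against BM. Across the 32 genes the Spearman correlation was -0.54 and Pearson's r -0.56, and across 10010 genes tested in both the Spearman correlation was -0.29. Genes are not independent replicates, and these values are a description only. The 4 genes with the lowest 24 h ratios, Hsd17b7, Sqle, Hmgcs1 and Msmo1, had log2 ratios of 2.95, 3.47, 3.22 and 3.17 in that pair. Dhcr7 departed from this order, at 3.12 in that pair and 0.69 after 24 h.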

How the data were processed

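The table gives expected counts per gene, which the authors deposited for all 6 libraries. HISAT2, StringTie, DESeq2 and the build GRCm38 are named in the submitters' processing notes, with no versions, and strand use in counting is not given in the sources used here. From 24.7% to 27.7% of the values above 0 in a library were not whole and were rounded. Rows with no gene name (742, at most 0.522% of a library) were left out. Genes reaching 1 CPM in any library (14719) were analysed.

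Ratios between 2 libraries used TMM-scaled counts with exact 95% Clopper-Pearson intervals from the conditional binomial. These intervals cover counting error only, since each group has 1 library. They treat reads as independent, although amplified reads carry no molecular identifiers. A gene was tested in a pair when the higher library reached 5 CPM. edgeR 4.0.16 (R 4.3.3) fitted cell type and IL6 time as additive terms by quasi-likelihood, adjusted by Benjamini-Hochberg over all genes analysed. The scripts were tested on simulated data with known changes. Alternatives were DESeq2 1.42.0, other scalings, filters, fold limits and a fixed variation.

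All 32 genes are named. Some other pathway genes are not reported here and stand in none of that list's counts. Values in all libraries were to be given at least for genes counted in an IL6 comparison or among the 4 highest or 4 lowest ratios of a pair. The 32 genes, the lists and the markers were chosen with earlier results of these data known. The libraries set in place of untreated ones were chosen after the data were seen.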

Additional observations from a re-analysis of the deposited data

How the results depend on the processing

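Counts of the 32 genes moved under some settings. The share of all genes counted was not computed for other scalings, a fold limit of 1.5 or a fixed variation. Counts under those settings are therefore not set against all genes. With total-count scaling, 2 genes in place of 1 were lower in M-BMDM against BM, 1 in place of none in GM-BMDM against BM, and 2 in place of 1 higher after 24 h of IL6. The other direction lost calls: from 14 to 12 higher in M-BMDM against BM, from 26 to 22 in GM-BMDM against BM, from 11 to 9 with GM-CSF against M-CSF (from 9 to 7 after 3 h), and from 6 to 5 lower after 24 h. DESeq2 size factors ended the call of Srebf2 in M-BMDM against BM. In the edgeR test of GM-CSF against M-CSF, 2 in place of none fell with total-count scaling. With a fold limit of 1.5, the count lower than BM was 2 for M-BMDM, that for GM-BMDM was 1, the count higher with GM-CSF was 20 without IL6 and 18 after 3 h, and 4 were higher after 24 h. With the 3 h library in place of untreated M-BMDM, 2 were lower than BM, and 0 were higher after 24 h. Asking for at least 2-fold as well took the genes that rose with GM-CSF from 24 to 9. In that test, genes near 0 changed sign without a call: Msmo1 was 0.00151 with 4 libraries, 0.00649 with a filter at 5 CPM, 0.0282 with DESeq2 size factors and 0.0281 in the DESeq2 Wald test, and under total-count scaling Hsd17b7 was -0.0775, Scap -0.0631 and Fads1 -0.0472. The cause was not tested. No paired analysis was possible because each group has 1 library and the labels carry no replicate numbers, and no library could be left out within a group. Calls rested on as few as 115 counts in a library (Tm7sf2 in BM), and Scd1 after 24 h had 117.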

Other observations

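The 24 h ratios in M-CSF macrophages were also read by promoter letters, a grouping noticed after the values were seen and therefore not tested. The 5 genes whose promoter held no NF-Y box (Acaca, Acat2, Elovl6, Fads2 and Scap) were all above their level without IL6, with log2 ratios from 0.26 to 1.06 and a median of 0.55. Of the 20 genes with the box, 13 were below and 7 above, with a median of -0.32. The 7 genes without a promoter sequence (Scd1, Scd2, Fads1, Fdps, Fdft1, Sqle and Stard4) were 4 below and 3 above. The ratios of all genes were not grouped this way. Acaca, Elovl6 and Fads2 are also fatty acid genes, of which 7 of 8 were above 0. Acly (0.19) and Fasn (0.33), of the same role, hold the box and were above 0 too. The part of role in this grouping was not tested.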
